A study of Mus musculus with 10 samples.

Results

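Open chromatin of the day 6 fraction labelled mTEC4 was set against that of the day 6 fraction labelled mTEC2, in thymic epithelial cells (TEC) of mice. Each fraction had 2 libraries, 4 of the 10 libraries in the series, and their lists held 284111 of the 882163 deposited peaks. The 4 peak lists were merged, which gave 199336 regions, and the regions examined were those called in both lists of one fraction and in neither list of the other. The mTEC4 lists held 70144 and 71192 peaks, and the mTEC2 lists 101917 and 40858. The comparison was therefore also made with each list cut to its 40858 strongest peaks by the deposited −log10 q, which gave 107147 merged regions. At this equal length 2572 regions were mTEC4-specific and 5222 were mTEC2-specific.

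The study examined how Foxn1, the forkhead factor that TEC need, is regulated, and profiled accessible DNA by ATAC-seq, in which a transposase cuts and tags exposed DNA. All 4 libraries came from wild-type C57BL/6 mice labelled day 6, from thymi digested with Liberase TH and DNase, and from sorted TEC. The remaining groups, day 6 mTEC1, E17 and E15, had 2 libraries each and the same strain and genotype, and serve here only to show where else a region was called. The labels do not say what mTEC4 and mTEC2 stand for, what day 6 is counted from, or whether the replicates came from different animals, so p-values cover the spread between these libraries only, which may be technical. Peak names inside the mTEC4 lists use another fraction name (aTEC), as do those inside the mTEC2 lists (Hi), and groups were taken from the titles.

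TEC support T cell development. Cortical TEC attract and instruct early thymocytes through the chemokine Ccl25 and the Notch ligand Dll4, and cut peptides with the thymoproteasome subunit Psmb11 and the protease Prss16. Medullary TEC display self antigens, many of them under the control of Aire, and some of them turn into cells that resemble tuft, skin or other peripheral cell types. An ATAC-seq peak near a gene shows accessible DNA there and does not measure the gene's transcription.

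Promoters of 6 genes are shown because they separated the fractions at equal list length and come from different groups of genes. Plcb2 (a phospholipase of taste and tuft cell signalling) and Cldn3 (a tight junction claudin) had mTEC4-specific promoter calls. Psmb11, Dll4, Ccl19 (a chemokine of medullary TEC) and Ifit3 (an interferon-induced gene) had mTEC2-specific ones. Ifit3 is in none of the gene lists compared below. It was taken from the mTEC2-specific promoters after their values were seen. Each sequence holds the 250 bases before a RefSeq start of the gene (GRCm38.p6, the same assembly as mm10), 5′ to 3′ on the gene's strand. For Plcb2 this start lies inside the annotated gene, which reaches chr2:118728661, so most of that sequence lies within the gene. Capitals mark matches, on either strand, to any of 12 short motifs, among them GAAANNGAA (bound by interferon regulatory factors, IRF), GACGC (the core that FOXN1 binds), GGAAGT (ETS factors), AGGGGGC (part of the CTCF motif), TGANTCA (AP-1), CAGCTG (an E-box) and ACATGTC (a p63 half-site).
Plcb2 promoter, chr2:118728439-118728688, minus strand: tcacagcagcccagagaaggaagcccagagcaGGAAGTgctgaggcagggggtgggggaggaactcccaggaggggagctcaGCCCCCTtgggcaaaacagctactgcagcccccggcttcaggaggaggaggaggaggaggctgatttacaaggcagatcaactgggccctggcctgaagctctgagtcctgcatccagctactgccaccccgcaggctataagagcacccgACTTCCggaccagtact
Cldn3 promoter, chr5:134985964-134986213, plus strand: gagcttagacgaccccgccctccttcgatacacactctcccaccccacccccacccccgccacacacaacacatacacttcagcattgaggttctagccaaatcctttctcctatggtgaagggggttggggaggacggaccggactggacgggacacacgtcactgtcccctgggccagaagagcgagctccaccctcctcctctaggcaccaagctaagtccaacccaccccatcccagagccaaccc
Psmb11 promoter, chr14:54625060-54625309, plus strand: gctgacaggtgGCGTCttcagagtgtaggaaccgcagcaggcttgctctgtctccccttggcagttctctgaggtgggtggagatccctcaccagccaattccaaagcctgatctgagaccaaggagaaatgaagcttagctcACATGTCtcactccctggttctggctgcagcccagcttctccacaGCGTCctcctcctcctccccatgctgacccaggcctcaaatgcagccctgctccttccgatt
Dll4 promoter, chr2:119325534-119325783, plus strand: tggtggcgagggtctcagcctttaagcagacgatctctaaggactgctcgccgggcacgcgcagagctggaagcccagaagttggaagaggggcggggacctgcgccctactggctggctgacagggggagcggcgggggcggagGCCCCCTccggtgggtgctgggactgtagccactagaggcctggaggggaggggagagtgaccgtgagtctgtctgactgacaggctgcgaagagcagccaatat
Ccl19 promoter, chr4:42756366-42756615, minus strand: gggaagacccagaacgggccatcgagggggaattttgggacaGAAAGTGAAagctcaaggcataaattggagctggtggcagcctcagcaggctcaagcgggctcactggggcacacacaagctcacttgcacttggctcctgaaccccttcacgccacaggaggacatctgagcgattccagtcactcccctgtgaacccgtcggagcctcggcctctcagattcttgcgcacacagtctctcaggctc
Ifit3 promoter, chr19:34583279-34583528, plus strand: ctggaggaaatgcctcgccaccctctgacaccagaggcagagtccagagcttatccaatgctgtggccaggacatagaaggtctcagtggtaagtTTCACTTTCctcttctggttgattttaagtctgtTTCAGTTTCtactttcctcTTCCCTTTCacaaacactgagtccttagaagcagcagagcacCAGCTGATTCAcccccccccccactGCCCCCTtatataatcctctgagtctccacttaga
The Psmb11 sequence held 2 matches to the FOXN1 core and 1 to the p63 half-site. The Ifit3 sequence held 3 matches to the IRF motif and the Ccl19 sequence 1. In the Ifit3 sequence the E-box and AP-1 matches overlap. The Cldn3 sequence held no match to any of the 12 motifs. Because the 6 genes were chosen by their calls, these matches do not test a difference between the fractions. A match is a run of letters and not evidence that a factor was bound.

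One library of each fraction stood apart. Of the 24384 regions that mTEC4 replicate 1 alone called at equal length, 2.87% to 3.83% were also called in the 4 deposited embryonic lists, against 14.8% to 18.9% of those of mTEC4 replicate 2, 50.5% to 59.2% of those of mTEC2 replicate 1 and 27.5% to 35.5% of those of mTEC2 replicate 2. The mTEC2 replicate 2 list was the shortest, so it was never shortened and kept peaks down to a −log10 q of 1.01, against 1.53 and 1.59 in the mTEC4 lists and 2.19 in mTEC2 replicate 1. The last peak kept and the first left out had 1.5323 and 1.5322 in mTEC4 replicate 1, 1.5857 in both cases in mTEC4 replicate 2, where 25 peaks tied, and 2.187 and 2.1868 in mTEC2 replicate 1. The lists carry no read counts, so read depth is unknown. Among marker genes, the promoter of Krt8, a keratin of simple epithelia and TEC, was called in both mTEC4 lists (−log10 q of 2.73 and 2.3) and in both mTEC2 lists (4.81 and 2.91). The promoter of Epcam, a surface protein of epithelial cells, was called weakly in 1 deposited list of each fraction (1.23 in mTEC4 replicate 1 and 1.84 in mTEC2 replicate 1). No promoter peak was called in any of the 4 lists at Foxn1, Ccl21a (a chemokine gene of medullary TEC) or Krt5 (a basal keratin). The same held for Ptprc (the pan-leukocyte gene for CD45), Cd79a (B cells) and Pdgfra (mesenchyme), so the lists mark epithelial identity only in part.

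The first question was whether the 2 lists of a fraction shared more regions with each other than with the lists of the other fraction. As deposited, 6708 regions were mTEC4-specific, which is 3.37% of all merged regions, and 7504 were mTEC2-specific (3.76%), 14212 together. Pairing the lists by the same replicate number gave 4283 regions called only in mTEC4 replicate 1 and mTEC2 replicate 1 (2.15%) and 987 called only in the replicates numbered 2 (0.495%), 5270 together. Pairing them crosswise gave 862 regions called only in mTEC4 replicate 1 and mTEC2 replicate 2 (0.432%) and 7933 called only in mTEC4 replicate 2 and mTEC2 replicate 1 (3.98%), 8795 together. The pairing by fraction thus gave the highest total, yet the largest single set joined a list of each fraction. The counts depend on having 2 lists a fraction: at equal length, leaving out mTEC4 replicate 1 gave 20835 mTEC4-specific and 5887 mTEC2-specific regions, mTEC4 replicate 2 gave 27017 and 9287, mTEC2 replicate 1 gave 3968 and 23831, and mTEC2 replicate 2 gave 3054 and 21226.

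At equal length the same order held, with 7794 regions for the pairing by fraction, 2186 for the same replicate number and 4073 for the crossed pairing. The mTEC4-specific regions were then 2.4% and the mTEC2-specific regions 4.87% of merged regions. The sets of the other pairings were 0.779% (835 regions, both replicates numbered 1), 1.26% (1351 regions, both numbered 2), 0.859% (920 regions, mTEC4 replicate 1 with mTEC2 replicate 2) and 2.94% (3153 regions, mTEC4 replicate 2 with mTEC2 replicate 1). All 4 lists called 9466 regions, 8.83% of the merged total, while 71.9% of regions were called in 1 list only.

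**Figure D1:**
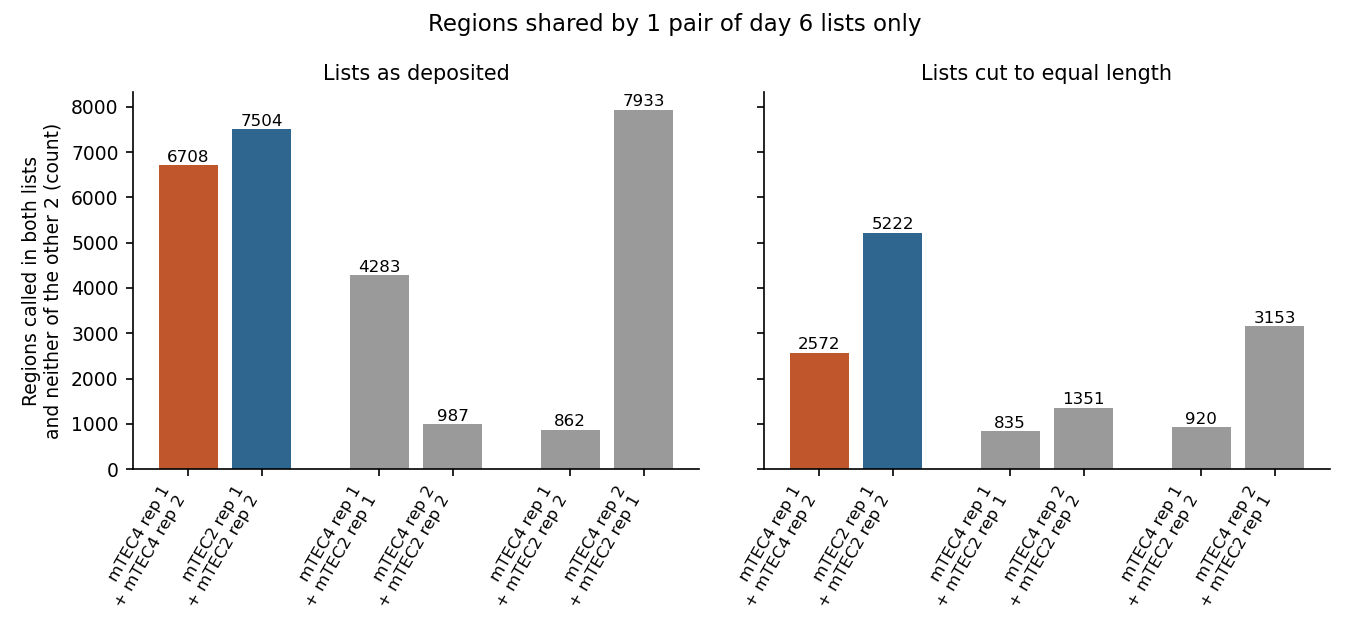
Bars give the number of regions called in both lists of a pair and in neither of the other 2, with the lists as deposited (left) and cut to 40858 peaks each (right); coloured bars are the pairs of 1 fraction (mTEC4 left of mTEC2) and grey bars the pairs that mix fractions. The pairing by fraction has the highest sum in both panels, 14212 and 7794, while the pair of mTEC4 replicate 2 with mTEC2 replicate 1 has 7933 and 3153 regions.

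The Jaccard index, the sequence that 2 lists share as a percent of the sequence either covers, was compared in the same way. At equal length it was 21.5% between the mTEC4 lists and 29.2% between the mTEC2 lists. Between fractions it was 30.9% for mTEC4 replicate 2 and mTEC2 replicate 1, 23.7% for the replicates numbered 2, 18.8% for those numbered 1, and 17.1% for mTEC4 replicate 1 and mTEC2 replicate 2. Lists of the same fraction were 2.73 points more alike on average than lists of different fractions (2.43 points as deposited). The exact permutation p over the 3 ways to pair the lists was 0.333, one-sided, which is the smallest this design allows. As deposited, that difference was 0.549 points without mTEC4 replicate 1, 6.2 without mTEC4 replicate 2, 1.77 without mTEC2 replicate 1 and 1.2 without mTEC2 replicate 2. With peaks of −log10 q of at least 5 only, the difference was −5.45 points, the other way.

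Where the specific regions were called in the other 6 lists separated the 2 sets. Of the mTEC4-specific regions, the deposited E15 lists called 18.3% and 18.2%, and the E17 lists called 18.0% and 20.5%. Of the mTEC2-specific regions, E15 replicates 1 and 2 called 83.9% and 83.7%, and E17 replicates 1 and 2 called 80.3% and 85.6%. All merged regions lay between, with 37.4% to 41.8% called in each of those 4 lists. In the mTEC1 lists, 50.5% and 26.5% of mTEC4-specific and 36.3% and 67.2% of mTEC2-specific regions were called, so the 2 mTEC1 libraries differed in which set they shared more of. None of these 6 lists called 31.5% of mTEC4-specific and 4.39% of mTEC2-specific regions.

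The same contrast appeared between 2 sets that mix the fractions. Regions called only in mTEC4 replicate 2 and mTEC2 replicate 1 were called in the 4 embryonic lists at a mean of 84.5%, and those called only in mTEC4 replicate 1 and mTEC2 replicate 2 at 19.3%, next to means of 18.7% for mTEC4-specific and 83.4% for mTEC2-specific regions. Leaving out mTEC2 replicate 1 made the mTEC4-specific and mTEC2-specific means 42.8% and 43.0%. Leaving out mTEC2 replicate 2 gave 24.2% and 61.7%, leaving out mTEC4 replicate 1 gave 16.9% and 82.8%, and leaving out mTEC4 replicate 2 gave 4.85% and 88.0%. The 2 means were thus alike without mTEC2 replicate 1, but leaving out a list redefines both sets. The mTEC4 set then takes in regions such as the 1375 called in both mTEC4 lists and mTEC2 replicate 1 (mean 86.8%). The mTEC2 set takes in those that mTEC2 replicate 2 alone called (18467, mean 31.4%). These means therefore do not show what a single library contributes.

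**Figure D2:**
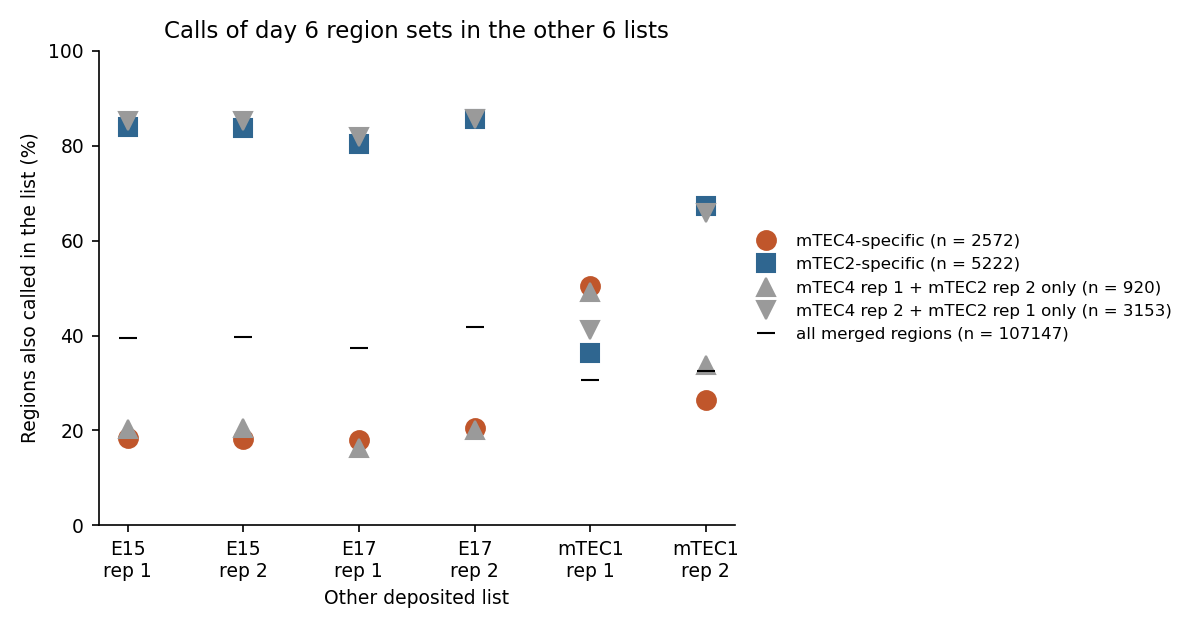
Points give the percent of regions of each set, at equal length of the 4 day 6 lists, that were also called in each of the other 6 deposited lists. The mTEC2-specific squares (80.3% to 85.6% in embryonic lists) lie next to the grey set that joins mTEC4 replicate 2 and mTEC2 replicate 1, and the mTEC4-specific circles (18.0% to 20.5%) with the grey set that joins mTEC4 replicate 1 and mTEC2 replicate 2.

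The difference was present in each range of −log10 q. Regions were grouped by the lower of their 2 −log10 q values. These values belong to their own list and the lists end at different values, so a range need not mean the same strength in both fractions. Of mTEC4-specific regions, 22.1% (of 1608) were called in at least 1 embryonic list at a −log10 q below 2, 33.1% (of 749) between 2 and 3, 40.4% (of 151) between 3 and 5 and 54.7% (of 64) at 5 or above. Of mTEC2-specific regions the shares were 88.2% (of 2196), 86.2% (of 1961), 93.1% (of 946) and 93.3% (of 119). The share was higher in stronger mTEC4-specific regions. Some specific regions had a weaker peak below the cut in the other fraction. Of the mTEC4-specific regions 27.0% had one in mTEC2 replicate 1, and of the mTEC2-specific regions 7.68% had one in mTEC4 replicate 1 and 17.3% in mTEC4 replicate 2. Without these, 1877 mTEC4-specific and 4042 mTEC2-specific regions were left, with embryonic means of 12.1% and 83.5%.

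The 2 sets also lay at different places. Of the mTEC4-specific regions 6.1% (95% Wilson interval 5.24% to 7.1%) lay within 1 kb of either end of a protein-coding gene, 32.6% inside a gene and 61.3% elsewhere. Of the mTEC2-specific regions 10.7% (9.93% to 11.6%) lay at gene ends, 42.1% inside genes and 47.1% elsewhere. The intervals cover counting of regions only, not the spread between libraries. The order of the shares at gene ends turned round with list length: among the 20000 strongest peaks of each list they were 25.1% for mTEC4-specific and 16.3% for mTEC2-specific regions. The median width was 235 bp for mTEC4-specific and 181 bp for mTEC2-specific regions, against 402 bp for regions called in all 4 lists, of which 67.6% lay at gene ends. On the X chromosome lay 6.22% of mTEC4-specific and 1.49% of mTEC2-specific regions. All merged regions at equal length had a median width of 112 bp. Of them 13.1% lay at gene ends, 35.0% inside genes, 51.9% elsewhere and 4.51% on X.

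Whole lists differed in the same directions. As deposited, peaks outside genes and their ends made up 59.2% and 51.1% of the mTEC4 lists, against 47.7% and 41.7% of the mTEC2 lists. Peaks inside genes made up 27.6% and 31.8% of the mTEC4 lists, against 38.1% and 34.1% of the mTEC2 lists. Peaks on X made up 6.38% and 5.07% of the mTEC4 lists, against 3.77% and 3.25% of the mTEC2 lists. For these 3 measures the fractions did not overlap, and the exact permutation p over the 6 ways to choose 2 of 4 lists, two-sided, was 0.333, the smallest possible. Peaks at gene ends overlapped, with 13.2% and 17.1% in mTEC4 and 14.2% and 24.1% in mTEC2 (exact permutation p of 0.667). Peaks on Y numbered 1476 and 596 in the mTEC4 lists and 868 and 187 in the mTEC2 lists.

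Genes were compared by the number of regions called in each list over the gene and 10 kb on each side, at equal length. Both mTEC4 counts lay above both mTEC2 counts for 969 of 21896 protein-coding genes (4.43%), and both mTEC2 counts lay above both mTEC4 counts for 2497 (11.4%). As deposited these shares were 4.73% and 8.79%. The mean count per gene was 1.37 and 1.69 in the mTEC4 lists, against 1.86 and 1.7 in the mTEC2 lists. The exact permutation test over 2 lists a fraction cannot go below 0.333, so genes are described by whether the counts overlap, beside these 2 shares. With a list left out, more genes fall apart by construction. Over all genes, mTEC4 counts were above for 15.9% and mTEC2 counts for 15.5% without mTEC4 replicate 1, and for 12.8% and 27.2% without mTEC4 replicate 2. The shares were 10.2% and 20.9% without mTEC2 replicate 1, and 7.48% and 25.1% without mTEC2 replicate 2.

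Genes of TEC identity and cortical TEC held fewer mTEC4 than mTEC2 regions. Of 18 listed genes, 0 had both mTEC4 counts above and 8 had both mTEC2 counts above (44.4%, against 11.4% of all genes), with a median difference of −1.0 regions against 0.0 over all genes. Foxn1 had 0 and 0 regions in the mTEC4 lists, against 2 and 2 in the mTEC2 lists. Its promoter had no peak in any list of either fraction. The mTEC2 calls at Foxn1 fell in different places, since within 50 kb of the gene no region was called in both mTEC2 lists and neither mTEC4 list. In that wider window the peaks numbered 2 and 4 in mTEC4 and 7 and 8 in mTEC2. The strongest peak of each list there had a −log10 q of 2.39 and 11.8 in mTEC4 and 6.58 and 6.08 in mTEC2, so mTEC4 replicate 2 held the highest value of the 4 lists. Psmb11 had 0 and 1 regions in mTEC4 and 2 and 2 in mTEC2. Prss16 had 0 and 2 in mTEC4 and 5 and 3 in mTEC2.

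The other 10 listed genes overlapped between fractions. Among those that did not overlap, Ccl25 had 1 and 1 regions in mTEC4 and 3 and 5 in mTEC2. Trp63, the p53 relative of stratified epithelia, had 1 and 2 in mTEC4 and 4 and 3 in mTEC2. Pax9, a paired-box factor of the pharyngeal pouches, differed least, with 2 and 2 in mTEC4 and 3 and 3 in mTEC2. At Dll4 the counts overlapped, with 3 and 1 in mTEC4 and 3 and 3 in mTEC2. Overlapping counts with the higher mean in mTEC4 were found at Cd83 (2 and 1 in mTEC4, 1 and 0 in mTEC2), Epcam and Kitl (each 2 and 1 in mTEC4, 1 and 1 in mTEC2). As deposited, 7 of the 18 genes had mTEC2 counts above, and 9 to 11 did at equal length with any 1 list left out, where 15.5% to 27.2% of all genes did.

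Thymocyte genes held fewer mTEC4 regions as well. Of 18 listed thymocyte and T cell genes, 0 had both mTEC4 counts above and 8 (44.4%) had both mTEC2 counts above, the median difference was −1.0 regions, and the summed counts of the list were 20 and 29 in mTEC4 and 53 and 46 in mTEC2. Bcl11b, a factor that commits cells to the T lineage, had 1 and 3 regions in mTEC4 and 8 and 8 in mTEC2. Cd3g, a chain of the T cell receptor complex, had 1 and 1 in mTEC4 and 4 and 3 in mTEC2, and its neighbour Cd3d, whose window overlaps, had 0 and 0 in mTEC4 and 2 and 1 in mTEC2. Rag1, part of the recombinase, had 1 and 1 in mTEC4 and 4 and 2 in mTEC2. No listed thymocyte gene was at 0 in all 4 lists, and 5 and 2 of the 18 were at 0 in the mTEC4 lists, against 0 and 1 in the mTEC2 lists. Without mTEC4 replicate 2, 13 of the 18 had mTEC2 counts above, where 27.2% of all genes did. The promoter of Cd3e, another chain of that complex, was called weakly in 1 deposited list of each fraction (1.29 in mTEC4 replicate 2 and 1.36 in mTEC2 replicate 2), and that of Lck, a kinase of T cell receptor signalling, in both mTEC2 lists only (1.23 and 1.01). Among other cell types, summed counts overlapped between fractions for dendritic cells and macrophages (31 and 25 in mTEC4, 35 and 29 in mTEC2), endothelium (8 and 28 in mTEC4, 18 and 21 in mTEC2), mesenchyme (3 and 10 in mTEC4, 8 and 7 in mTEC2), erythroid cells (7 and 13 in mTEC4, 11 and 10 in mTEC2) and B cells (13 and 10 in mTEC4, 18 and 11 in mTEC2). By genes, both mTEC2 counts were above for 2 of 8 B cell genes (25.0%) and 3 of 16 dendritic cell and macrophage genes (18.8%), against 11.4% of all genes. Both mTEC4 counts were above for 0 and 1 of them. For endothelium and for erythroid cells 1 gene was above in each direction. Ms4a1, which encodes the B cell protein CD20, and Gata1, the erythroid factor, were at 0 in all 4 lists. The part of thymocytes in the mTEC2 calls was not tested.

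Housekeeping genes, which should not mark a cell type, went the same way, with mTEC4 counts above for 0 of 12 and mTEC2 counts above for 4 (33.3%), and a median difference of −0.25 regions. For example Ppia, which encodes cyclophilin A, had 2 and 2 regions in mTEC4 and 4 and 3 in mTEC2. NF-kB pathway genes, which drive medullary maturation, gave 0 of 17 with mTEC4 counts above and 6 (35.3%) with mTEC2 counts above, and 10 with mTEC2 counts above without mTEC4 replicate 2, where 27.2% of all genes did. Map3k14, the kinase of the noncanonical arm, had 1 and 3 in mTEC4 and 4 and 6 in mTEC2, and Nfkb1, a subunit, had 4 and 3 in mTEC4 and 5 and 7 in mTEC2.

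**Figure D3:**
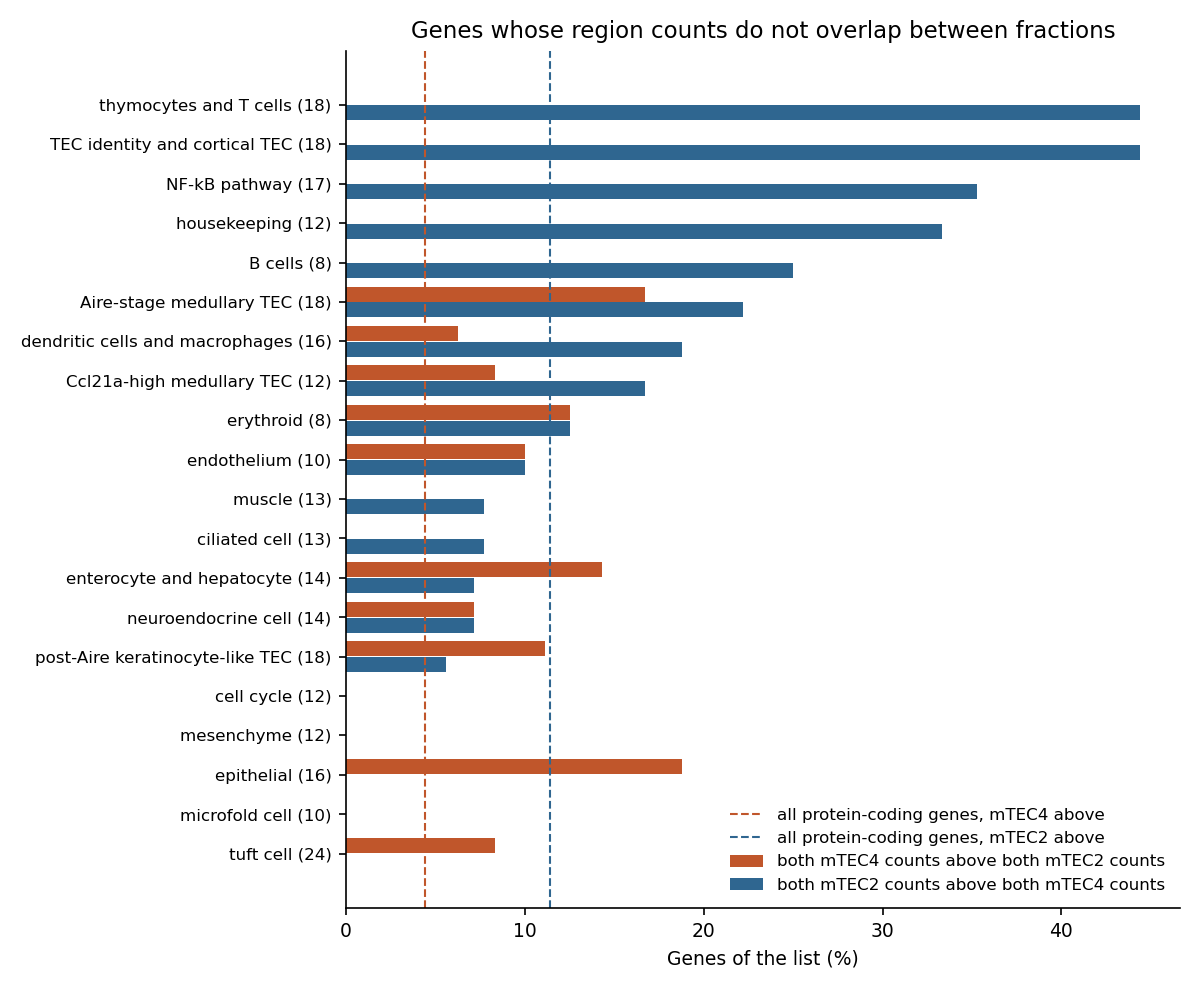
Bars give the percent of genes in each list whose 2 region counts in one fraction both exceed the 2 counts in the other, at equal list length (mTEC4 above in the upper bar, mTEC2 above in the lower bar; number of genes in brackets), and dashed lines give the percent over all protein-coding genes, 4.43% and 11.4%. The mTEC2 bars reach 44.4% for the TEC identity and thymocyte lists, and the epithelial and tuft cell lists have mTEC4 bars only.

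Aire-stage genes split between the fractions. Of 18, 3 had mTEC4 counts above and 4 had mTEC2 counts above, and 7 had mTEC2 counts above without mTEC4 replicate 2 (27.2% of all genes) or without mTEC2 replicate 2 (25.1% of all genes). Prdm1, a repressor, had 4 and 5 regions in mTEC4 and 3 and 2 in mTEC2, and Cd74, the invariant chain of MHC class II, had 2 and 3 in mTEC4 and 1 and 1 in mTEC2. Ciita, the activator of MHC class II genes, had 2 and 1 in mTEC4 and 5 and 4 in mTEC2, and Cd40, a receptor for signals from thymocytes, had 0 and 1 in mTEC4 and 2 and 2 in mTEC2. Aire itself had 0 and 2 regions in mTEC4 and 1 and 2 in mTEC2, which overlap. The Aire promoter was called in all 4 deposited lists, with a −log10 q of 1.48 and 1.62 in mTEC4 and 7.94 and 3.98 in mTEC2.

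Some epithelial genes and a few tuft cell genes held more mTEC4 regions. Of 16 epithelial genes, 3 (18.8%, against 4.43% of all genes) had mTEC4 counts above and 0 had mTEC2 counts above. Ehf, an ETS factor of epithelia, had 2 and 2 regions in mTEC4 and 0 and 0 in mTEC2. Krt19, a keratin, had 1 and 1 in mTEC4 and 0 and 0 in mTEC2. As deposited, 1 epithelial gene was above in each direction. Without mTEC4 replicate 1 it was 6 in mTEC4 and 0 in mTEC2 (15.9% and 15.5% of all genes), without mTEC4 replicate 2 it was 4 and 3, without mTEC2 replicate 1 it was 5 and 1, and without mTEC2 replicate 2 it was 4 and 3. Of 24 tuft cell genes, 2 (8.33%, against 4.43% of all genes) had mTEC4 counts above and 0 had mTEC2 counts above, a median difference of 0.25 regions. The share with mTEC4 counts above was higher in other lists, so it was not particular to tuft genes. It was 16.7% for Aire-stage genes and 14.3% for enterocyte and hepatocyte genes, where mTEC2 counts were above for 22.2% and 7.14%.

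Among the tuft genes, Gnat3, the taste G protein gustducin, had 2 and 3 regions in mTEC4 and 0 and 1 in mTEC2. Alox5, which makes leukotrienes, had 2 and 2 in mTEC4 and 1 and 1 in mTEC2. At Dclk1, a kinase that marks tuft cells, the counts overlapped, with 5 and 3 in mTEC4 and 4 and 0 in mTEC2. They also overlapped at Pou2f3, the factor that tuft cells need, with 0 and 3 in mTEC4 and 6 and 2 in mTEC2. The summed tuft counts, 29 and 56 in mTEC4 and 46 and 24 in mTEC2, overlapped, and mTEC4 replicate 2 held the most. Without mTEC4 replicate 1, 9 tuft genes had mTEC4 counts above and 1 had mTEC2 counts above, where 15.9% and 15.5% of all genes did. Without mTEC4 replicate 2 it was 4 and 4 (12.8% and 27.2% of all genes), without mTEC2 replicate 1 it was 5 and 1 (10.2% and 20.9%), and without mTEC2 replicate 2 it was 3 and 6 (7.48% and 25.1%), so the order turned round there.

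The remaining lists had at most 3 genes apart in either direction. Of Ccl21a-high medullary genes, 1 of 12 had mTEC4 counts above and 2 had mTEC2 counts above, while Ccl21a, a chemokine that draws thymocytes into the medulla, had 2 and 2 in mTEC4 and 3 and 2 in mTEC2. Itga6, an integrin, had 5 and 5 in mTEC4 and 3 and 4 in mTEC2. Of 18 genes of keratinocyte-like cells, 2 had mTEC4 counts above (Grhl1 and Lypd3) and 1 had mTEC2 counts above (Grhl3). No gene was apart among the 12 cell cycle, the 12 mesenchyme and the 10 microfold genes.

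**Figure D4:**
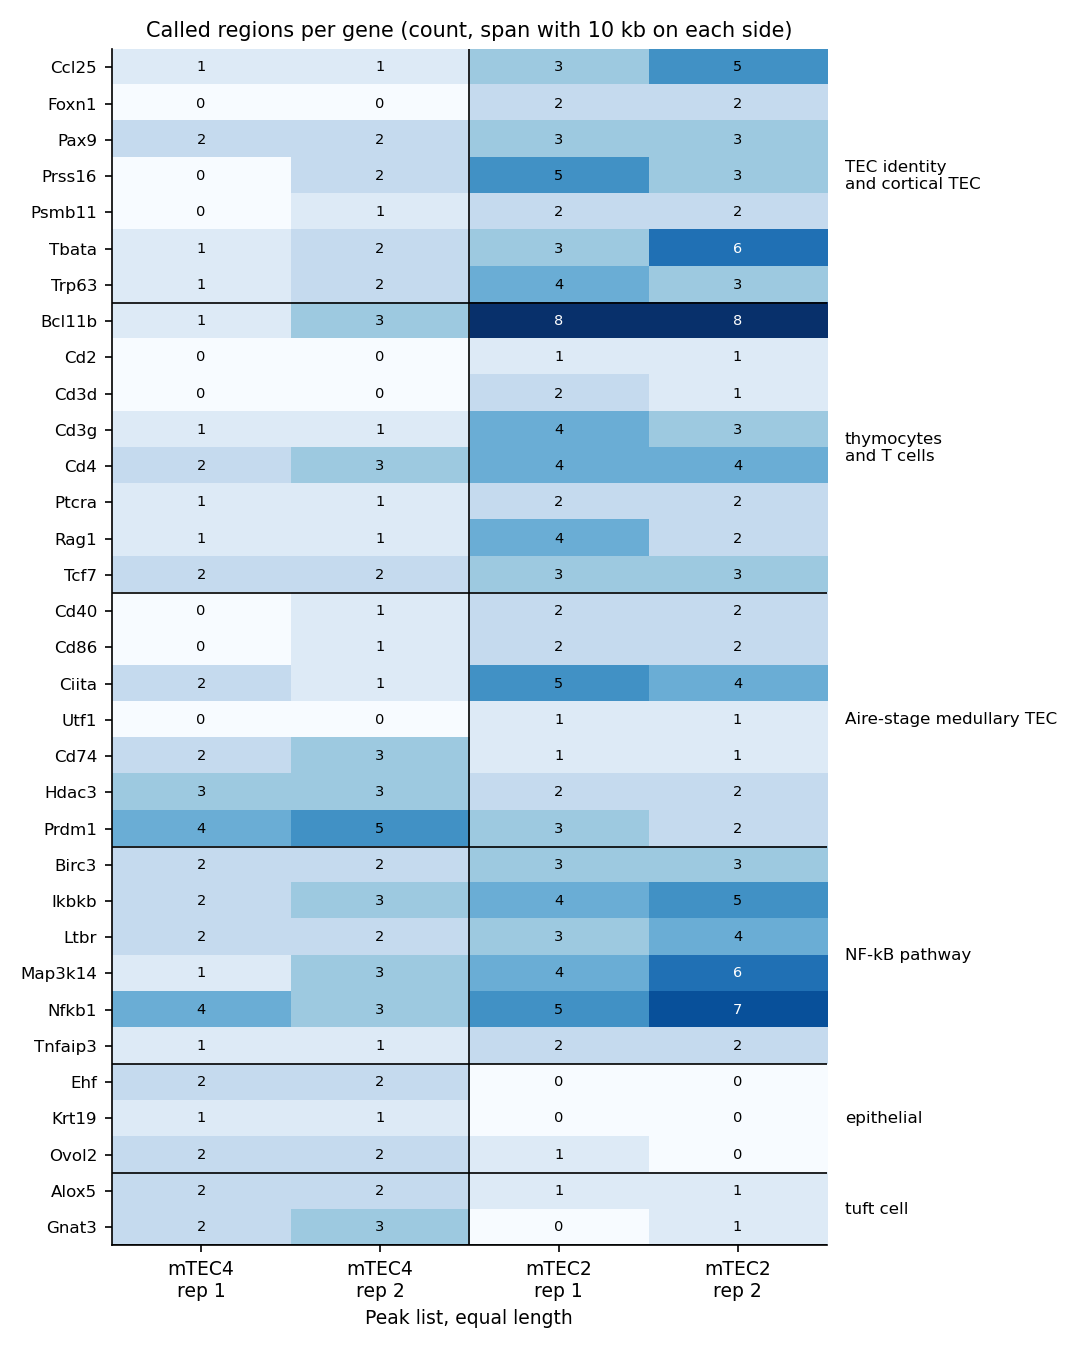
Each cell gives the number of regions called over a gene and 10 kb on each side in 1 list at equal length, for genes of 6 lists whose counts did not overlap, 1 of them left out, with mTEC4 lists left and mTEC2 lists right. Bcl11b has 8 and 8 regions in mTEC2 against 1 and 3 in mTEC4, and Ehf has 2 and 2 in mTEC4 against 0 and 0 in mTEC2.

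Promoters gave a narrower view. Of 32851 promoter windows (250 bases before to 50 after a RefSeq start), 118 (0.359%) were mTEC4-specific and 349 (1.06%) mTEC2-specific at equal length, in 111 and 326 genes. The crossed pair of mTEC4 replicate 2 and mTEC2 replicate 1 had more, 754 (2.3%), and the other 3 mixed pairs had 29 (0.0883%), 73 (0.222%) and 165 (0.502%). As deposited, 105 (0.32%) were mTEC4-specific and 326 (0.992%) mTEC2-specific, beside 1120 (3.41%), 10 (0.0304%), 121 (0.368%) and 50 (0.152%) for the mixed pairs in the same order. Of the promoters specific at equal length, 49.2% of the mTEC4 set had a weaker peak in the deposited list of mTEC2 replicate 1, and 12.3% and 35.0% of the mTEC2 set had one in the deposited mTEC4 lists. Here both sets were common in embryonic lists, with 81.4% to 89.8% of mTEC4-specific and 88.5% to 92.0% of mTEC2-specific promoters called, against 43.5% to 48.0% of all promoters.

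The promoter of Psmb11 had a −log10 q of 7.18 and 2.9 in the mTEC2 lists and no peak in either deposited mTEC4 list. It had 1.34 in mTEC1 replicate 2 and 13.3 to 33.5 in the embryonic lists. That of Dll4 had 3.78 and 1.89 in mTEC2, no peak in mTEC4, 11.6 in E15 replicate 2 and 12.6 in E17 replicate 2. The Dll4 promoter was also called in both mTEC1 lists (3.45 and 3.59). That of Ccl19 had 3.12 and 2.02 in mTEC2 and no peak in mTEC4. It was also called in mTEC1 replicate 1 (1.94) and in both E15 lists (2.9 and 3.88). That of Plcb2 had 1.69 and 1.73 in mTEC4 and no peak in any other of the 10 lists. That of Cldn3 had 2.06 and 3.32 in mTEC4, no peak in mTEC2, 1.9 in mTEC1 replicate 2 and 3.38 to 5.51 in the embryonic lists. Further listed genes were Ccdc39, a gene of motile cilia, with 1.71 and 4.22 in mTEC4, and Apoe, an apolipoprotein, with 3.62 and 1.97 in mTEC2.

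Some promoters outside the lists, that of Ifit3 among them, were picked after their values were seen. Hepacam2, a gene expressed in tuft cells, had a −log10 q of 2.26 and 8.68 in mTEC4 and no peak in the embryonic lists, and Hopx, a homeodomain protein of differentiating keratinocytes, had 1.73 and 4.77 in mTEC4. Slc46a2, a transporter known from cortical TEC, had 3.7 and 2.54 in mTEC2. Lat, an adaptor of T cell receptor signalling, had 4.46 and 2.57 in mTEC2, and Il2rg, the common chain of cytokine receptors, had 3.49 and 2.48. Neither Lat nor Il2rg was called in an embryonic list. Ltb, a lymphotoxin made by lymphocytes, and Runx3, a factor of CD8 T cells, were also mTEC2-specific without an embryonic call, with 3.79 and 1.82 for Ltb and 2.75 and 1.82 for Runx3. In the mTEC4 set, the promoter of Traf3ip3 had no embryonic call either, with 2.17 and 1.96. The genes named for mTEC2 were picked from 326, so they do not show how common lymphocyte genes were among them.

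Motif matches were counted in these windows. The IRF motif occurred in 2 of 118 mTEC4-specific promoters (1.69%) and 45 of 349 mTEC2-specific promoters (12.9%), against 8.56% of all promoters and 5.31% of those called in all 4 lists. The other sets ran from 4.85% (the replicates numbered 2) to 17.2% (5 of 29, mTEC4 replicate 1 with mTEC2 replicate 2), so a mixed pair had the highest share. The 45 windows belonged to 41 genes, some with several starts under 1 peak. They included the interferon-induced genes Ifit3, Ifit3b and Gbp7, and Erap1, which trims peptides for MHC class I. Ifit3 had a −log10 q of 4.47 and 2.9 in mTEC2, Gbp7 4.01 and 3.14 and Erap1 6.22 and 3.23, and all of these promoters were called in the 4 embryonic lists. Ifit3 and Ifit3b are near-identical copies. The FOXN1 core occurred in 36.4% of mTEC4-specific and 40.4% of mTEC2-specific promoters, against 27.2% of all promoters and 55.1% of those called in all 4 lists.

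The other motifs differed less or were rarer. ETS matches occurred in 24.6% of mTEC4-specific, 25.2% of mTEC2-specific and 23.8% of all promoters, and CTCF core matches in 11.9%, 16.0% and 10.6%. E-box matches occurred in 17.8%, 15.2% and 16.3%, and AP-1 matches in 7.63%, 6.02% and 7.81%. TGTGGTT, the motif of RUNX factors, occurred in 0 of 118 mTEC4-specific promoters, in 14 of 349 mTEC2-specific promoters (4.01%) and in 5.27% of all. The p63 half-site, the NF-kB motif GGGANTTTC and the RFX motif GTTGCCATG were also in 0 mTEC4-specific promoters, and in 3, 5 and 4 mTEC2-specific promoters, with 2.01%, 1.11% and 0.773% of all promoters holding them. TGTTTAC (forkhead factors) and ATGCAAAT (POU factors such as Pou2f3) occurred in 4 and 2 mTEC4-specific promoters, in 10 and 4 mTEC2-specific promoters, and in 3.65% and 1.74% of all. The promoters behind 1 peak can be several starts of a gene, so these counts are not of independent sites.

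Fraction-specific regions were also assigned to the nearest gene within 100 kb, which reaches past the 10 kb used for the counts. At least 1 mTEC4-specific region lay nearest to 30 of the 281 listed genes (10.7%, against 7.53% of all protein-coding genes) and at least 1 mTEC2-specific region to 67 (23.8%, against 16.9%). The mTEC4-specific region inside Gnat3 (chr5:17976775-17977144) had a −log10 q of 5.33 and 3.37 and was called in no embryonic list. A region inside Dclk1 (chr3:55501436-55501696) had 3.07 and 2.2 and no embryonic call, while one at an end of Dclk1 (chr3:55242440-55242777) had 2.74 and 2.3 and was called in all 4 embryonic lists. Krt18, the partner keratin of Krt8, had 2 mTEC4-specific regions nearby, of which chr15:102026400-102026668 had 2.02 and 1.59. Itga6 had 2, and the stronger (chr2:71751461-71751606, 35279 bp from the gene) had 3.69 and 6.81. Single regions lay nearest to Elf3, Tnfaip2, Anxa5, Traf3, Pdcd1lg2, Hbb-bs, Pkp1 and Ret, with a lower −log10 q of 2.31 to 3.3. Several of these regions had a weaker peak in the deposited list of mTEC2 replicate 1. They were the one at an end of Dclk1, the stronger one of Itga6, and those of Tnfaip2, Traf3, Pkp1 and Ret.

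Among mTEC2-specific regions, 2 lay nearest to Ctsl, the cathepsin of cortical TEC, one of them (chr13:64388489-64388862) with a −log10 q of 4.69 and 4.47. Nfkb1 had 1 inside the gene (chr3:135628667-135629069) with 4.1 and 2.77. The region nearest to Ccl21a (chr4:42798870-42799113) had 10.2 and 5.7, but it lies in a cluster of Ccl21 copies, where near-identical sequence may share reads. Anxa5 and Elf3 had regions of both kinds, 1 mTEC4-specific region each beside 3 and 2 mTEC2-specific regions. Tek, Mki67, Itgam and Isl1 had 2 mTEC2-specific regions each. The named regions of Ctsl and Ccl21a had a weaker peak in the deposited list of mTEC4 replicate 2, as did a region at each of Tek, Mki67 and Itgam.

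Bcl11b had the most mTEC2-specific regions of the listed genes, 4. The 2 inside the gene (chr12:107928063-107928326 and chr12:107964653-107964970) had a −log10 q of 2.49 and 2.96, and of 3.04 and 2.16, and were called in no embryonic list and in mTEC1 replicate 2. The 2 outside it (chr12:107873870-107874017 and chr12:108051027-108051384) were called in all 4 embryonic lists, and the first also had a peak in the deposited list of mTEC4 replicate 2. The 2 regions at Itgam, an integrin of myeloid cells, likewise had no embryonic call.

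Peaks at the T cell receptor alpha locus were fewer in mTEC4 at equal length. Over chr14:52427967-54224198 the mTEC4 lists held 28 and 44 peaks at equal length, against 102 and 72 in the mTEC2 lists. As deposited the counts overlapped, with 58 and 89 in mTEC4 and 162 and 72 in mTEC2. At equal length 1 region was mTEC4-specific and 30 were mTEC2-specific. The embryonic lists called 9 to 12 of the 30, mTEC1 replicate 1 called 14 and mTEC1 replicate 2 called 24. The region of the 30 with the highest lower value (chr14:52983113-52983449) had a −log10 q of 10.3 and 5.94. The locus carries repeated blocks of variable segments, and 5 pairs of the 30 regions had the same width and lay 310936 to 311186 bp apart, so reads may be shared between copies. The receptor beta locus had 9 and 10 peaks in mTEC4 and 12 and 10 in mTEC2 (2 mTEC4-specific and 4 mTEC2-specific regions), the gamma locus 1 and 2 in mTEC4 and 4 and 1 in mTEC2 (1 region each), and the immunoglobulin heavy chain locus 48 and 26 in mTEC4 and 33 and 26 in mTEC2 (4 and 5 regions). The immunoglobulin kappa locus went the other way, with 61 and 47 peaks in mTEC4 and 24 and 25 in mTEC2 at equal length, and 6 mTEC4-specific regions against 0. As deposited the kappa counts overlapped, with 105 and 86 in mTEC4 and 82 and 25 in mTEC2.

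**Figure D5:**
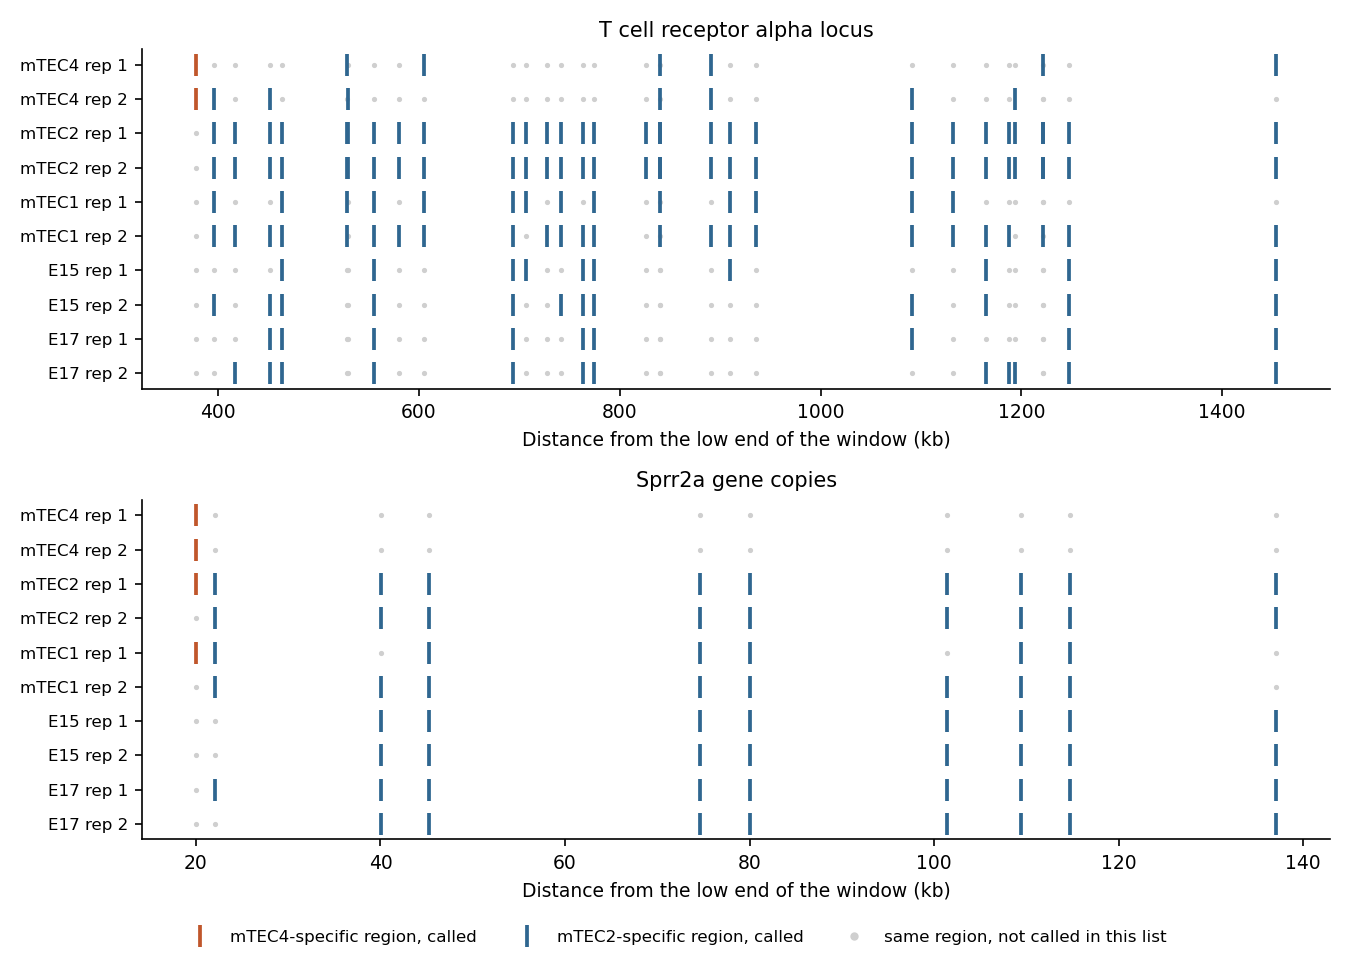
Each row is 1 deposited list, each vertical tick a specific region that the list called and each grey dot one it did not, by distance in kb from the low end of the T cell receptor alpha locus (top) and of a window around the Sprr2a copies (bottom). Of 30 mTEC2-specific regions at the receptor locus the mTEC4 lists called 6 and 7 as deposited, and of 9 at the Sprr2a copies they called 0 and 0.

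Other dense groups of mTEC2-specific regions, 3 of them at copies of a gene, were chosen for description after the values were seen. At the Sprr2a copies, which encode cornified envelope proteins of skin, 9 regions were mTEC2-specific, 8 to 9 of them were called in each embryonic list and none in either deposited mTEC4 list. A region began at −404 bp from the low end of both Sprr2a1 and Sprr2a2 and at −376 bp from that of Sprr2a3, and the 3 regions had a −log10 q of 5.1 to 5.22 in mTEC2 replicate 1 and 2.79 to 4.23 in mTEC2 replicate 2. On chromosome 4, 6 neighbouring gene copies (Gm38423 to Gm428) each held a mTEC2-specific region 282 to 315 bp inside their low end. Between Hrh1 and Atg7, 0 regions were mTEC4-specific and 21 mTEC2-specific, with a median gap of 4901 bp, and 20 to 21 of the 21 were called in each embryonic list. Near the 5S ribosomal RNA copies 16 were mTEC2-specific. Reads of near-identical copies cannot be assigned to 1 copy, so these counts are uncertain. Without these loci, the receptor alpha locus and the Snhg14 locus, 2564 mTEC4-specific and 5139 mTEC2-specific regions were counted at equal length, an alternative chosen after seeing the data.

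Regions on unplaced sequence or far from protein-coding genes led the mTEC4-specific set. Of its 10 strongest regions, 5 lay on an unplaced sequence and 2 near the start of the assembled chromosome 9 (chr9:3004654-3004805 and chr9:3014817-3014898), and 9 of the 10 had no protein-coding gene within 100 kb. The highest −log10 q, 36.8 and 13.4, was at chr17:7616275-7616347, which was called in both mTEC1 lists and in no embryonic list. Each of the 10 regions was called in mTEC1 replicate 1, so they were not particular to mTEC4. Those at chr12:105436116-105436227 and chr14:92319786-92319884 also had a weaker peak in the deposited list of mTEC2 replicate 1. At Snhg14, the host of imprinted small nucleolar RNA arrays, the mTEC4 lists held 21 and 25 peaks at equal length, against 2 and 7 in the mTEC2 lists, and 6 regions were mTEC4-specific against 1 mTEC2-specific. As deposited there were 38 and 45 in mTEC4 and 17 and 7 in mTEC2. The mTEC1 lists held 57 and 20 there as deposited, and 18 and 6 at equal length. The high number was thus not particular to mTEC4, and it differed between the mTEC1 libraries.

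Of the 10 strongest mTEC2-specific regions, 8 had a protein-coding gene within 100 kb. The strongest lay 1435 bp from C1s1, a complement gene (chr6:124528778-124528908), with a −log10 q of 9.75 and 13.6, and was called in none of the other 8 lists. Regions inside Dyrk1a (chr16:94614829-94614941) with 12.4 and 9.64, Phactr2 (chr10:13402113-13402224) with 7.92 and 11.1, and Gm11639 (chr11:104872835-104872922) with 7.39 and 12.4 were called in neither deposited mTEC4 list. Those at Dyrk1a and Phactr2 were also called in both E17 lists. Regions inside Gpa33 (chr1:166154292-166154420), a surface protein of intestinal epithelium, with 9.19 and 8.21 and Sned1 (chr1:93289786-93289902) with 14.1 and 7.8 were called in all 4 embryonic lists. The Gpa33 region also had a peak in the deposited list of mTEC4 replicate 2. The regions at all of these genes except C1s1 were called in both mTEC1 lists, so they were not particular to mTEC2. As deposited, the genes with the most mTEC4-specific regions included Sgcz with 9, Cntnap2 with 8, and Cadm2, Itgbl1 and Marchf1 with 7. Those with the most mTEC2-specific regions were Hrh1 with 9, Rad51b with 8, and Celf2, Cntnap2, Gas8 and Rapgef1 with 7, so Cntnap2, which encodes a neuronal adhesion protein, stood in both lists.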

How the data were processed

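ATAC-seq was done on sorted TEC, and 1 broad peak list per library was deposited, so replicates were not pooled. The build was mm10 and the tools were MACS2, Picard, Bowtie2 and cutadapt, per the submitters' processing notes. Versions, settings and any shift of read ends are not given in the sources used here. Per the labels the lists describe nucleosome-free chromatin. The authors deposited for each peak a score, which was not used, a fold enrichment, which is a ratio to the caller's background within that library, and a −log10 p and a −log10 q. These values are the authors', belong to their own list and served only to rank or filter peaks within it. The lists hold no counts, so depth and its precision are unknown, and a region without a peak in a list is one not called there.

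Groups were taken from the titles. Peaks of the 4 lists were merged where they overlapped or touched, and a region was called in a list with at least 1 bp of overlap. Equal length meant the 40858 peaks of highest −log10 q in each list, with ties in file order. Gene positions and promoters came from RefSeq tables of GRCm38.p6 (21896 protein-coding genes, 32851 promoter windows of 27025 symbols). All 281 symbols of the 20 gene lists matched, and Epcam and Spib were each in 2 lists. Regions were assigned to the nearest gene within 100 kb. Tests were exact permutations over libraries. Named genes were 6 fixed ones, the 10 strongest regions and up to 12 listed genes with most regions in each direction, and 6 genes with most regions as deposited, and some genes and regions so chosen are not reported here. The regions, gene lists, loci and rules were chosen with earlier results of these data known. Alternatives were other list lengths, rankings, thresholds, merging and overlap rules, gene windows, omitted chromosomes or loci, and leaving out each library. Merging, overlap and specific calls were tested on simulated lists. The work used Python 3.11.15, numpy 2.4.6, pandas 2.3.3, scipy 1.17.1 and matplotlib 3.10.9.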

Additional observations from a re-analysis of the deposited data

How the results depend on the processing

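With the lists as deposited cut to peaks of −log10 q of at least 2, 1004 mTEC4-specific and 3975 mTEC2-specific regions were left, and at 5, 136 and 542. Requiring a peak over at least 50% of a region gave 4203 mTEC4-specific regions as deposited. Equal length changed the deposited 6708 mTEC4-specific regions to 2572. With the 20000 strongest peaks there were 850 and 1926, and with 10000, 483 and 722.

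Leaving out each replicate in turn gave 7170 to 47890 mTEC4-specific and 8607 to 68030 mTEC2-specific regions as deposited, and 3054 to 27017 and 5887 to 23831 at equal length, because a lone list then defines its fraction. So defined, the embryonic mean ran from 4.85% to 42.8% for mTEC4-specific and from 43.0% to 88.0% for mTEC2-specific regions, and the mTEC1 mean from 17.8% to 50.9% and from 22.1% to 62.2%, alternatives chosen after seeing the data. With the lists as deposited the embryonic means were 7.43% and 76.0%, and with the other lists cut to equal length 8.1% and 63.4%. The share at gene ends was 2.16% and 7.93% as deposited and 25.1% and 16.3% with 20000 peaks.

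The Jaccard difference ran from 0.549 to 6.2 points over the left-out lists and was −5.45 points with strong peaks only. Genes with mTEC4 counts above numbered 1699, and with mTEC2 counts above 3910, with 50 kb on each side, and ran from 1638 to 3483 and from 3397 to 5951 over the left-out lists. The difference in peaks at gene ends (−4.02 points) ran from −8.95 to 0.915 points over the left-out lists, turning round without mTEC2 replicate 2. The difference in median width (4.0 bp) was −8.0 bp at equal length and ran from −0.5 to 8.5 bp. With a replicate block, which paired the libraries by replicate number, the differences were the same, for example 10.4 points for peaks outside genes and 2.21 points on X, with an exact p of 0.5, the smallest possible. The labels do not say that a number marks a shared animal or batch. The unknown depth limits any reading of a peak that 1 list has and another lacks.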
